A study of Homo sapiens with 12 samples.

Results

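The mitochondrially encoded complex I mRNAs are the 7 mRNAs of the mitochondrial genome that encode subunits of NADH dehydrogenase: MT-ND1, MT-ND2, MT-ND3, MT-ND4L, MT-ND4, MT-ND5 and MT-ND6. They were taken by symbol from the 22148 gene entries of the deposited tables, and all 7 passed the filter on low values. They were measured in HepG2, an established line of human liver tumour cells that keeps many hepatocyte functions. Cells received either CPSF6 siRNA (siCPSF6) or control siRNA (siNC), were cultured for 48 h and were then kept in actinomycin D at 5 µg/ml for 0, 3 or 6 h, with 2 biological replicates in each of the 6 groups and 12 mRNA libraries in all. The 0 h libraries are cells collected at the start of the drug, and each 5 µg portion of total RNA received ERCC spike-in RNA. The study asks how silencing of CPSF6, a subunit of cleavage factor Im that takes part in choosing the 3′ ends of nuclear transcripts, changes RNA levels and RNA loss.

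Complex I takes electrons from NADH and pumps protons across the inner mitochondrial membrane. Its membrane arm is built around the 7 mitochondrial subunits, while the remaining subunits are encoded in the nucleus and imported. Mitochondrial DNA is read by its own polymerase into long transcripts of both strands, from which the mRNAs are released by cutting at the flanking tRNAs. MT-ND6 is the only mRNA of the light-strand transcript. In human cells it is known to carry little or no poly(A) tail, unlike the heavy-strand mRNAs. Actinomycin D binds DNA and blocks transcription, and cleavage factor Im is a nuclear factor that does not process mitochondrial transcripts.

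MT-ND2, MT-ND4 and MT-ND5 encode the antiporter-like subunits of the proton-pumping arm. On chromosome M of hg38, MT-ND2 (ENSG00000198763.3) lies at 4470 to 5511, MT-ND4 (ENSG00000198886.2) at 10760 to 12137 and MT-ND5 (ENSG00000198786.2) at 12337 to 14148, all on the plus strand. MT-ND1 (ENSG00000198888.2, 3307 to 4262, plus strand) encodes the subunit beside the quinone channel, and MT-ND3 (ENSG00000198840.2, 10059 to 10404, plus strand) a small subunit at the hinge between both arms. MT-ND4L (ENSG00000212907.2, 10470 to 10766, plus strand) and MT-ND6 (ENSG00000198695.2, 14149 to 14673, minus strand) encode further small subunits near that hinge. Each gene is annotated as a single coding exon without introns. On the map MT-ND6 directly follows MT-ND5 on the opposite strand, with 0 bases of overlap, and whether the authors' counting used strand is not given in the sources used here.

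MT-ND4L and MT-ND4 share 7 bases and are known to be read from a common mRNA, so reads over the junction belong to both. The shared bases are in capitals in the end of MT-ND4L (chrM:10737-10766) and the start of MT-ND4 (chrM:10760-10789), each written 5′ to 3′ on the plus strand from the GENCODE release 29 transcripts.
MT-ND4L: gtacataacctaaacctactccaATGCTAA
MT-ND4: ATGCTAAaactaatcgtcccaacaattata

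The coding strand of MT-ND6 also differs in its bases. G made up 35.6% of the MT-ND6 mRNA and C 7%, against 9.5% to 12.1% G and 29.5% to 36% C in the other 6 members. Runs of 3 or more G numbered 19 in the 525 bases of MT-ND6, or 36.2 per kb, against 0 to 3.63 per kb in the other members and up to 6.38 per kb over all 12 heavy-strand mRNAs. The 60 bases with the most bases in such runs are shown for MT-ND6 (chrM:14227-14286, minus strand), for MT-ND5, its neighbour (chrM:12714-12773, plus strand), and for MT-ND2 (chrM:5203-5262, plus strand), with the runs in capitals and each sequence 5′ to 3′. MT-ND6 had 5 runs in its window and each of the others 1.
MT-ND6: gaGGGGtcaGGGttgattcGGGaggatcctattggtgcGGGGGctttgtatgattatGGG
MT-ND5: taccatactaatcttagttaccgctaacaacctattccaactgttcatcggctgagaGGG
MT-ND2: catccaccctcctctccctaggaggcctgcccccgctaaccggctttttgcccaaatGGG

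Values below are normalized counts, which are gene counts that the authors scaled to the same upper quartile in each library and rounded. Spacing of the whole numbers that occur gave a depth of 21800000 to 30300000 reads per library. CPSF6 averaged 743 ± 35.4 normalized counts in siCPSF6 and 2114.5 ± 46.0 in siNC at 0 h (SD, n = 2 each), and its average difference over the 3 times was -1.95 on the log2 scale (SE 0.05, limma adjusted p = 2.8e-13). All 8 hepatocyte markers were present, the lowest being HNF4A with a median of 42.1 TPM, a level corrected for length and depth. Of 8 markers of immune, endothelial and stromal cells, 6 have values. These sum to 37.9 to 53.3 TPM in siCPSF6 libraries and 48.9 to 78.0 TPM in siNC libraries. VWF was at most at 0.02 TPM and COL1A1 at most at 0.87 TPM. Medians were 27.2 TPM for CD68, 19.8 TPM for ACTA2, 3.45 TPM for CD14 and 0.38 TPM for PECAM1. The part of these markers in the results was not tested. In bulk samples such as these, fewer cells of a type and less RNA per cell cannot be told apart.

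Together the members took 3.04% and 3.19% of all gene counts in siCPSF6 and 2.89% and 2.81% in siNC at 0 h. After 3 h the shares were 1.94% and 1.93% in siCPSF6 and 1.94% and 1.96% in siNC, and after 6 h they were 1.31% and 1.27% in siCPSF6 and 1.11% and 1.15% in siNC. The siCPSF6 shares lay above the siNC shares at 0 h and at 6 h and overlapped them at 3 h.

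Levels of different genes can be set side by side only per length. As normalized counts per kb of annotated length in siCPSF6 at 0 h, the order was MT-ND4 (186795), MT-ND2 (143340), MT-ND1 (88406), MT-ND5 (59184), MT-ND3 (47893), MT-ND4L (31550.5) and MT-ND6 (3522). In siNC at 0 h the order was the same, from MT-ND4 (167557) down to MT-ND4L (23924) and MT-ND6 (3994), and no neighbours in either order overlapped between libraries. The TPM table gives another order for the short genes. MT-ND4L (17755 TPM in siCPSF6 and 15909 TPM in siNC) and MT-ND3 (15203 TPM in siCPSF6 and 14285 TPM in siNC) stood there above MT-ND4 (12307.5 TPM in siCPSF6 and 11513 TPM in siNC), and MT-ND6 was lowest (436 TPM in siCPSF6 and 541 TPM in siNC). In siNC at 0 h MT-ND1 had 27.0 times as many normalized counts per TPM as MT-ND4L although it is only 3.22 times as long, so the rank of the 297-base MT-ND4L and the 346-base MT-ND3 rests on how the authors corrected for length. MT-ND6 stood last on both scales. The libraries were made from mRNA, and the part of its short or missing poly(A) tail in this rank was not tested.

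MT-ND6 lost almost all of its counts within 3 h of actinomycin D in both arms. In siCPSF6 its normalized counts were 1933 and 1765 at 0 h, 39 and 30 at 3 h and 14 and 24 at 6 h. In siNC they were 2056 and 2138 at 0 h, 74 and 40 at 3 h and 10 and 13 at 6 h. Every library at 3 h and 6 h lay far below every 0 h library, and at 0 h both siCPSF6 libraries were below both siNC libraries. After 3 h, 1.87% of the 0 h mean remained in siCPSF6 and 2.72% in siNC, and after 6 h 1.03% remained in siCPSF6 and 0.548% in siNC.

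The change of MT-ND6 from 0 to 3 h was -5.71 in siCPSF6 (SE 0.28, limma adjusted p = 3e-09) and -5.24 in siNC (SE 0.28, adjusted p = 3.2e-09), as differences of mean log2(normalized count + 1). From 0 to 6 h it was -6.58 in siCPSF6 (adjusted p = 2.3e-10) and -7.40 in siNC (adjusted p = 2.6e-11), with an SE of 0.28 each. At 6 h the counts correspond to about 10 and 20.9 reads in siCPSF6 and 8.1 and 10.2 reads in siNC, so the values at this time are set by few reads. The difference between the arms in the change to 6 h was 0.82 (SE 0.40, adjusted p = 0.15) and did not pass. With 1 library left out it ranged from 0.46 (adjusted p = 0.44, without siCPSF6 6 h replicate 2) to 1.19 (adjusted p = 0.047, without siCPSF6 6 h replicate 1).

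**Figure D1:**
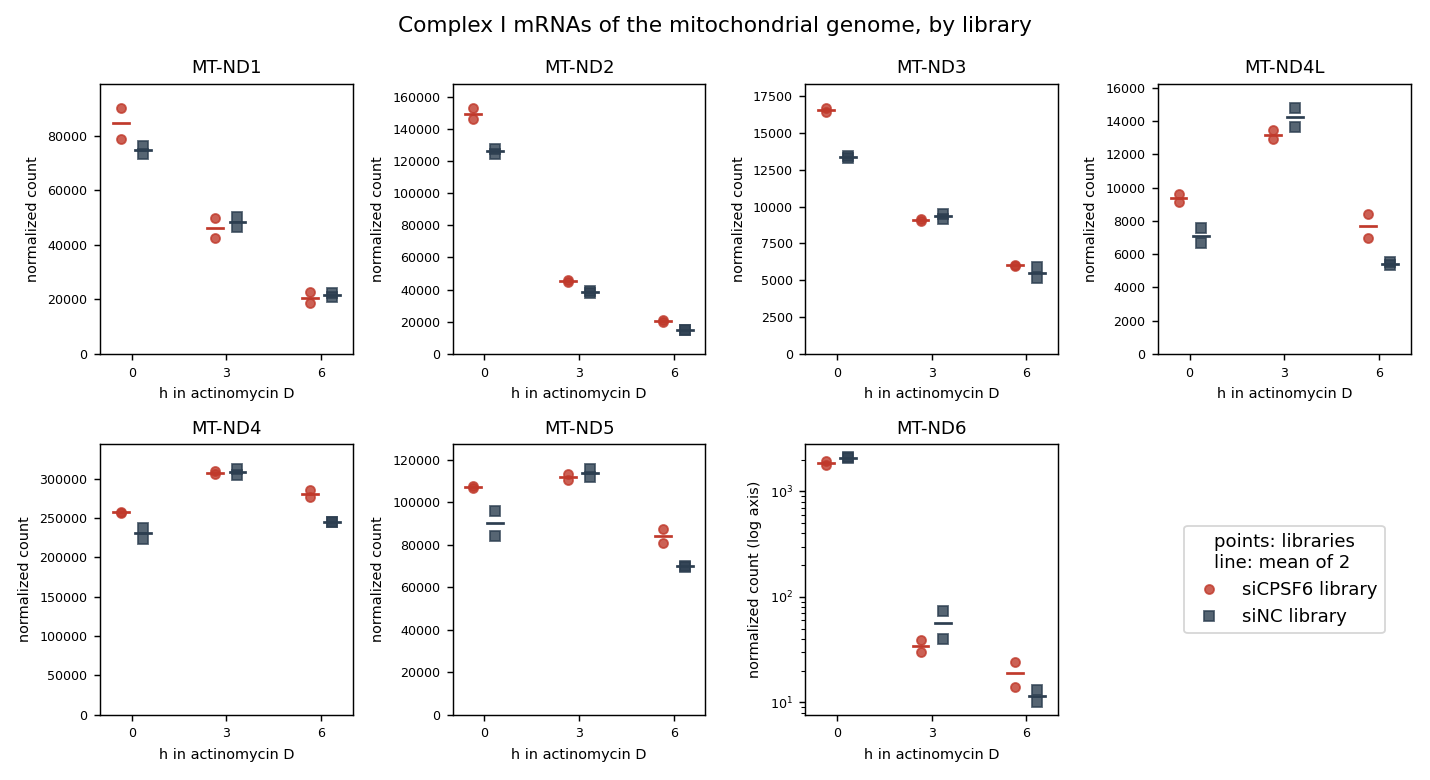
Normalized counts of the 7 members (y axis, linear from 0, logarithmic for MT-ND6) against hours in actinomycin D (x axis); points are libraries of siCPSF6 (red circles, left) and siNC (dark squares, right), and lines are means of 2. MT-ND6 lies between 1765 and 2138 at 0 h and at or under 74 in every later library, whereas MT-ND4 lies between 223804 and 312593 in all 12.

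Of the heavy-strand members MT-ND2 fell by the most. In siCPSF6 it had 145863 and 152857 normalized counts at 0 h, 44715 and 45857 at 3 h and 21315 and 19629 at 6 h. In siNC it had 127480 and 124404 at 0 h, 39017 and 37721 at 3 h and 14595 and 14691 at 6 h. The libraries of each time stood apart from those of the others, and at each time both siCPSF6 libraries were above both siNC libraries. Its change to 6 h was -2.87 in siCPSF6 (adjusted p = 1.1e-13) and -3.10 in siNC (adjusted p = 2e-14), with an SE of 0.06 each.

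MT-ND1 and MT-ND3 fell as well. In siCPSF6, MT-ND1 had 78909 and 90124 normalized counts at 0 h, 49753 and 42477 at 3 h and 22858 and 18492 at 6 h. In siNC it had 73461 and 76126 at 0 h, 50296 and 46489 at 3 h and 22491 and 20720 at 6 h. Both siCPSF6 libraries were above both siNC libraries at 0 h, the arms overlapped at 3 h and 6 h, and the change of MT-ND1 to 6 h was -2.04 in siCPSF6 and -1.79 in siNC (SE 0.10 each), with an adjusted p of 7e-10 in siCPSF6 and 1e-09 in siNC. MT-ND3 had 16690 and 16452 normalized counts at 0 h, 9197 and 9061 at 3 h and 6067 and 5953 at 6 h in siCPSF6. In siNC it had 13292 and 13436 at 0 h, 9507 and 9174 at 3 h and 5869 and 5164 at 6 h. MT-ND3 libraries of siCPSF6 were above those of siNC at 0 h and at 6 h, and at 3 h 1 of them was below both. The change of MT-ND3 to 6 h was -1.46 in siCPSF6 and -1.28 in siNC (SE 0.07 each).

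MT-ND4, MT-ND4L and MT-ND5 are the last heavy-strand members along the transcript. As deposited their counts at 3 h were at or above those at 0 h, and they changed less by 6 h than the members before them. Beyond the members this order did not hold. With spike-in scaling MT-CYB, which lies after MT-ND5 (14747 to 15887), kept 13.6% in siCPSF6 and 9.04% in siNC at 6 h. MT-CO1, which lies before MT-ND3 (5904 to 7445), kept 74.5% in siCPSF6 and 84.1% in siNC. MT-ND4 had 256930 and 257878 normalized counts at 0 h, 310145 and 305696 at 3 h and 285584 and 276513 at 6 h in siCPSF6. In siNC it had 237983 and 223804 at 0 h, 312593 and 304326 at 3 h and 245654 and 245375 at 6 h. Its 3 h libraries were above all 0 h libraries of their arm (0.26 in siCPSF6 and 0.42 in siNC, both passing), but with spike-in scaling the values were -0.28 in siCPSF6 and -0.27 in siNC and did not pass. With TPM MT-ND4 was lower at 3 h in both arms, with -0.23 in siCPSF6 (adjusted p = 0.00084) and -0.16 in siNC (adjusted p = 0.0058). Its change to 6 h was 0.13 in siCPSF6 (adjusted p = 0.084) and 0.09 in siNC (adjusted p = 0.21), with an SE of 0.06 each. With the replicate number as a block both passed (adjusted p = 0.0065 in siCPSF6 and 0.045 in siNC), while with spike-in scaling MT-ND4 was lower at 6 h in both arms (-0.73 in siCPSF6 and -0.87 in siNC).

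MT-ND5 had 106828 and 107654 normalized counts at 0 h, 113291 and 110400 at 3 h and 87535 and 80743 at 6 h in siCPSF6. In siNC it had 95849 and 84275 at 0 h, 115682 and 112075 at 3 h and 70090 and 69665 at 6 h. The change to 3 h was 0.06 in siCPSF6 (adjusted p = 0.47) and 0.34 in siNC (adjusted p = 0.00058), against -0.47 in siCPSF6 and -0.35 in siNC with spike-in scaling and -0.43 in siCPSF6 and -0.23 in siNC with TPM, all passing. By 6 h every library was below every 0 h library of its arm, with a change of -0.35 in siCPSF6 and -0.36 in siNC (SE 0.07 each), and an adjusted p of 0.00039 in siCPSF6 and 0.00027 in siNC.

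As deposited, MT-ND4L rose more than MT-ND4 at 3 h, a difference that depended on the scale. MT-ND4L had 9113 and 9628 normalized counts at 0 h, 12919 and 13466 at 3 h and 6986 and 8403 at 6 h in siCPSF6. In siNC it had 7567 and 6644 at 0 h, 13675 and 14785 at 3 h and 5535 and 5342 at 6 h. Counts were highest at 3 h in both arms, with changes from 0 h of 0.49 in siCPSF6 (SE 0.09, adjusted p = 0.00014) and 1.004 in siNC (SE 0.09, adjusted p = 8.4e-08), while with spike-in scaling they were -0.04 in siCPSF6 and 0.31 in siNC and did not pass. In the TPM table, which is corrected for length, 90.2% of the 0 h level of MT-ND4L was present at 3 h in siCPSF6 and 93.9% in siNC. MT-ND4 kept 85.2% in siCPSF6 and 89.3% in siNC there. The ranges of both genes over pairs of libraries overlapped in the TPM table in both arms and with spike-in scaling in siCPSF6, and stood apart with spike-in scaling in siNC. Counts per TPM of MT-ND4L, relative to those of MT-ND4, stood at 0.0254 and 0.0251 at 0 h and at 0.0292 and 0.0271 at 3 h in siCPSF6 libraries, and at 0.0222 and 0.0223 at 0 h and at 0.0306 and 0.0329 at 3 h in siNC libraries. The part of this length correction in the 3 h peak was not tested. By 6 h MT-ND4L was lower than at 0 h (-0.29 in siCPSF6, adjusted p = 0.0068, and -0.38 in siNC, adjusted p = 0.00084), and the siCPSF6 call was lost without siCPSF6 0 h replicate 2 (-0.25, adjusted p = 0.056) or 6 h replicate 1 (-0.16, adjusted p = 0.14).

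At 3 h, 4 of the 7 members were lower in siCPSF6 (22.9% of 12939 genes tested) and 2 were higher (43.6% of genes), and in siNC 4 were lower (25.7% of genes) and 3 higher (45.8% of genes), though with spike-in scaling 0 were higher in either arm (2.94% of genes in siCPSF6 and 4.13% in siNC). By 6 h 6 members were lower in each arm (27.6% of genes lower in siCPSF6 and 30.7% in siNC), a larger share than among all genes. In each arm 0 were higher (49.8% of genes higher in siCPSF6 and 48.6% in siNC). The median change of the members to 6 h was -1.46 in siCPSF6 and -1.28 in siNC, beside 0.35 in siCPSF6 and 0.31 in siNC over all genes. At an unadjusted p under 0.05, 6 members per arm passed in limma, all downward.

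These changes are relative to the upper quartile of a library, and the spike-in scale, which is set per mass of total RNA and not per cell, moved all of them down. The median over all genes for the change to 6 h went to -0.50 in siCPSF6 and -0.65 in siNC with spike-in scaling. All 7 members were then lower at 6 h in both arms (52.4% of genes in siCPSF6 and 57.7% in siNC), with member medians of -2.32 in siCPSF6 and -2.24 in siNC. At 3 h 5 were lower in both arms (38.4% of genes in siCPSF6 and 48.8% in siNC), and MT-ND4 and MT-ND4L did not pass. On this scale 60.1% of MT-ND4, 45.3% of MT-ND4L, 43.2% of MT-ND5, 19.98% of MT-ND3, 13.4% of MT-ND1, 7.54% of MT-ND2 and 0.572% of MT-ND6 remained at 6 h in siCPSF6. In siNC 54.6% of MT-ND4, 39.3% of MT-ND4L, 39.8% of MT-ND5, 21.1% of MT-ND3, 14.8% of MT-ND1, 5.98% of MT-ND2 and 0.285% of MT-ND6 remained.

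The order of these shares was the same in both arms except for MT-ND4L and MT-ND5, whose ranges over pairs of libraries overlapped in both. All other neighbours in the order at 6 h were apart. The other 6 mitochondrial mRNAs kept between 13.6% and 74.5% in siCPSF6 and between 9.04% and 84.1% in siNC on the same scale, MT-CYB being the lowest. MT-ND2 and MT-ND6 thus lay below the whole range of the other mitochondrial mRNAs in both arms.

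**Figure D2:**
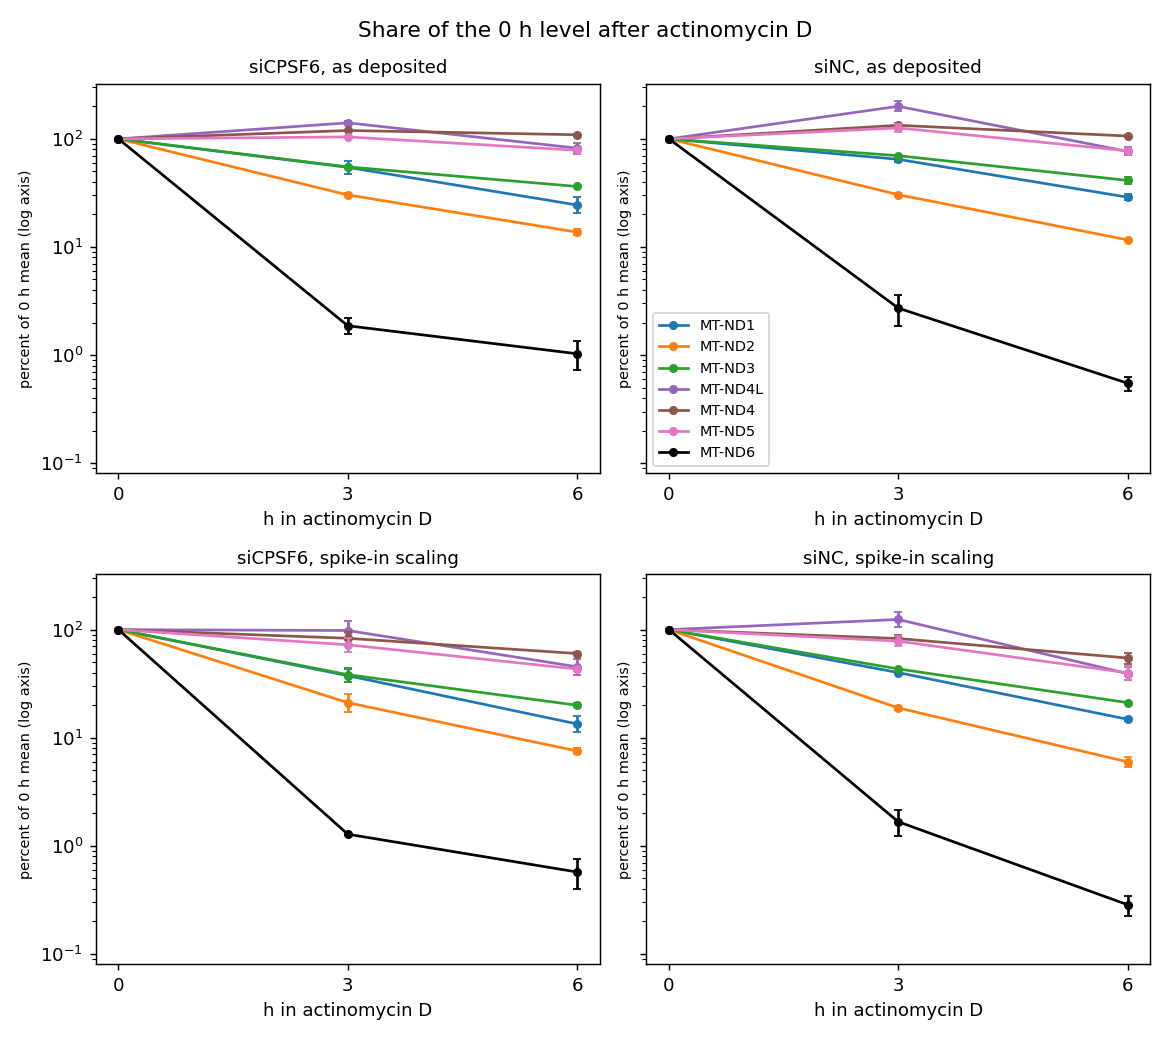
Percent of the 0 h mean (y axis, logarithmic) against hours in actinomycin D (x axis) for each member in siCPSF6 (left) and siNC (right), as deposited (top) and with spike-in scaling (bottom); bars span the lowest and highest ratio over the 4 pairs of libraries. MT-ND6 drops to between 1.28% and 2.72% at 3 h, MT-ND2 reaches 5.98% to 13.7% at 6 h, and MT-ND4, MT-ND4L and MT-ND5 stay on top.

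Ratios of the normalized counts of 2 genes within a library do not change when the whole library is scaled by a common factor. They can change with TPM, whose length correction of MT-ND3 and MT-ND4L relative to MT-ND4 differed between libraries. MT-ND2 over MT-ND4 was 0.568 and 0.593 at 0 h, 0.144 and 0.150 at 3 h and 0.0746 and 0.0710 at 6 h in siCPSF6. In siNC this ratio was 0.536 and 0.556 at 0 h, 0.125 and 0.124 at 3 h and 0.0594 and 0.0599 at 6 h. The siCPSF6 libraries were above the siNC libraries at every time. MT-ND5 over MT-ND4 changed much less, with 0.416 and 0.418 at 0 h and 0.307 and 0.292 at 6 h in siCPSF6, and 0.403 and 0.377 at 0 h and 0.285 and 0.284 at 6 h in siNC.

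MT-ND1 over MT-ND2, 2 neighbours on the transcript, was 0.541 and 0.590 at 0 h, 1.11 and 0.926 at 3 h and 1.07 and 0.942 at 6 h in siCPSF6. In siNC it was 0.576 and 0.612 at 0 h, 1.29 and 1.23 at 3 h and 1.54 and 1.41 at 6 h. The arms overlapped at 0 h and stood apart at 3 h and 6 h, with MT-ND1 lower relative to MT-ND2 in siCPSF6. These ratios were chosen after the values had been seen and were not tested.

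**Figure D3:**
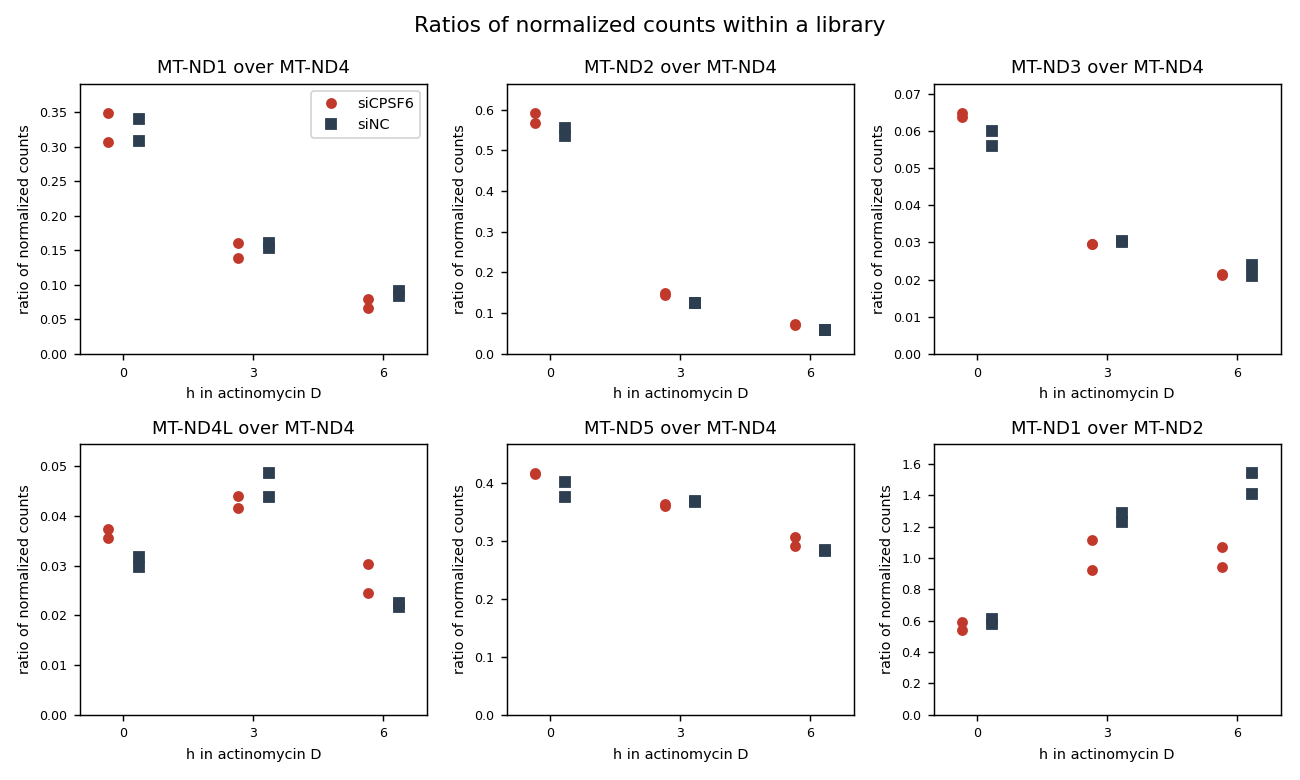
Ratio of the normalized counts of 2 members in the same library (y axis, linear from 0) against hours in actinomycin D (x axis) for siCPSF6 (red circles, left) and siNC (dark squares, right); each point is a library. MT-ND1, MT-ND2 and MT-ND3 drop against MT-ND4, and MT-ND4L is highest against MT-ND4 at 3 h in normalized counts. MT-ND1 over MT-ND2 is 1.07 and 0.942 in siCPSF6 and 1.54 and 1.41 in siNC at 6 h.

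CPSF6 silencing went with slightly higher counts of several members on the deposited scale. At 0 h 4 of 7 were higher in siCPSF6 as deposited (21.8% of genes higher) and 0 lower (21.1% of genes lower). MT-ND4L was higher by 0.40 (SE 0.09, adjusted p = 0.0017), MT-ND3 by 0.31 (SE 0.07, adjusted p = 0.0016), MT-ND5 by 0.25 (SE 0.07, adjusted p = 0.01) and MT-ND2 by 0.25 (SE 0.06, adjusted p = 0.0065). MT-ND1 (0.17, adjusted p = 0.2), MT-ND4 (0.16, adjusted p = 0.06) and MT-ND6 (-0.18, adjusted p = 0.64) did not pass. MT-ND4 did pass with the replicate block (adjusted p = 0.0024), with median-ratio scaling (0.20, adjusted p = 0.011) and without a filter on low values (adjusted p = 0.029). MT-ND6 passed when the 0 h groups were fitted alone (-0.18, adjusted p = 0.037). Without siCPSF6 0 h replicate 2 the call of MT-ND2 was lost (0.21, adjusted p = 0.055), and without siNC 0 h replicate 2 that of MT-ND5 (0.16, adjusted p = 0.15). With spike-in scaling 0 of 7 members passed in limma at 0 h (8.93% of genes higher and 19.7% lower), 0 also at an unadjusted p under 0.05. On the TPM scale 2 passed (19.1% of genes higher), MT-ND2 (0.18, adjusted p = 0.028) and MT-ND5 (0.20, adjusted p = 0.02). The calls of the short genes MT-ND4L (0.16, adjusted p = 0.13) and MT-ND3 (0.09, adjusted p = 0.23) were lost there.

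Averaged over the 3 times, 5 of 7 members were higher in siCPSF6 (34.4% of genes higher) and 0 lower (35.4% of genes lower). MT-ND2 had the clearest difference with 0.32 (SE 0.04, adjusted p = 1.6e-06), followed by MT-ND4L with 0.26 (SE 0.05, adjusted p = 0.00026) and MT-ND5 with 0.17 (SE 0.04, adjusted p = 0.0025). MT-ND3 (0.13, adjusted p = 0.0058) and MT-ND4 (0.12, adjusted p = 0.011) were higher by little, and MT-ND1 (0.01, SE 0.06) and MT-ND6 (-0.07, SE 0.16) did not pass. With spike-in scaling MT-ND2 (0.27, adjusted p = 0.0022) and MT-ND4L (0.22, adjusted p = 0.031) were still higher (26% of genes higher). The member median was 0.13 as deposited and 0.09 with spike-in scaling, beside -0.01 as deposited and -0.06 with spike-in scaling over all genes. The other 6 mitochondrial mRNAs went the same way, with 4 higher and 0 lower in the average as deposited (median 0.15). With spike-in scaling 1 of them was higher and 0 lower (median 0.10). At 0 h as deposited 1 was higher and 0 lower (21.8% of genes higher and 21.1% lower), with a median of 0.17.

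**Figure D4:**
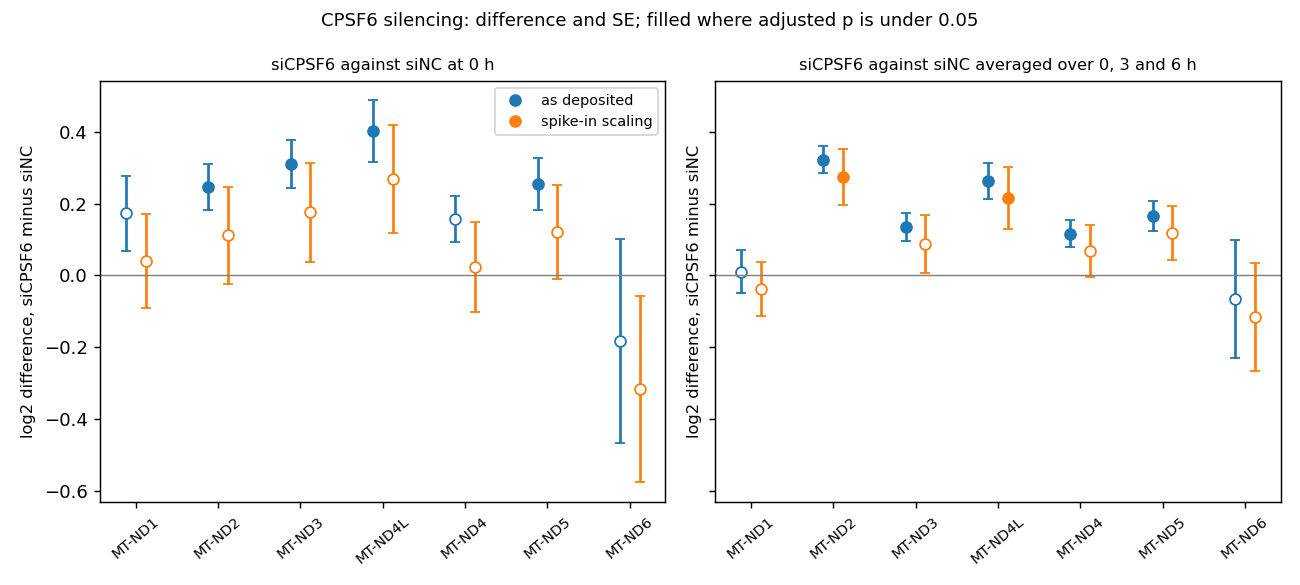
Log2 difference, siCPSF6 minus siNC, of each member (x axis) at 0 h (left) and averaged over 0, 3 and 6 h (right), as deposited (blue) and with spike-in scaling (orange); bars are the SE and filled points have an adjusted p under 0.05. MT-ND2 and MT-ND4L are filled on both scales in the average, with 0.32 and 0.26 as deposited, and no spike-in value is filled at 0 h.

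The arms were also compared for their change over time. From 0 to 3 h MT-ND4L rose less in siCPSF6 than in siNC (difference -0.51, SE 0.12, adjusted p = 0.037), the only member of 7 to pass (0.734% of genes lower). This call was lost when any of the 8 libraries of 0 h or 3 h was left out (-0.60 to -0.42, adjusted p = 0.051 to 0.16), and the difference was -0.35 with spike-in scaling (adjusted p = 0.67) and -0.06 with TPM (adjusted p = 0.9). With the replicate block MT-ND3 (-0.34, adjusted p = 0.0068) and MT-ND5 (-0.28, adjusted p = 0.012) passed as well (2.98% of genes lower). MT-ND3 also passed without siNC 6 h replicate 1 or without siNC 6 h replicate 2 (adjusted p = 0.027 each), but its value was -0.19 on the spike-in scale (adjusted p = 0.94) and of the other sign with TPM (0.058, adjusted p = 0.85). MT-ND5 had -0.12 with spike-in scaling (adjusted p = 0.99) and -0.20 with TPM (adjusted p = 0.36).

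From 0 to 6 h 0 of 7 members differed between the arms in limma (12% of genes higher and 12.4% lower), and 1 had an unadjusted p under 0.05. MT-ND2 lost less in siCPSF6 by a difference of 0.24 (SE 0.09) that did not pass (adjusted p = 0.072) but did with the replicate block (adjusted p = 0.011; 16.2% of genes higher). In the TPM table its difference was 0.36 (SE 0.08, adjusted p = 0.014). With spike-in scaling it was 0.34, with a larger SE of 0.19 (adjusted p = 0.30). MT-ND3 had -0.18 (adjusted p = 0.17) and did not pass. Its value was -0.092 (adjusted p = 0.50) without siNC 6 h replicate 1, -0.28 (adjusted p = 0.037) without siNC 6 h replicate 2, and of the other sign with TPM (0.058, adjusted p = 0.67).

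In the average over the times 0 of 37 nuclear subunit genes were higher in siCPSF6 and 23 lower (35.4% of genes lower), with a median of -0.23, or -0.28 with spike-in scaling. NDUFS1, the largest iron-sulfur subunit, had -1.10 (SE 0.05, adjusted p = 3e-11), and NDUFB9, an accessory subunit of the membrane arm, had -1.06 (SE 0.05). NDUFB5 had -0.70 and NDUFV2, which carries an iron-sulfur cluster of the NADH module, had -0.59. Over 6 h of the drug 36 of the 37 were higher as deposited in each arm (49.8% of genes higher in siCPSF6 and 48.6% in siNC). Their median changes were 0.85 in siCPSF6 and 1.29 in siNC as deposited, and -0.01 in siCPSF6 and 0.33 in siNC with spike-in scaling, where 3 were higher and 7 lower in siCPSF6 (5.83% of genes higher and 52.4% lower) and 18 higher and 3 lower in siNC (10.2% of genes higher and 57.7% lower).

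Of 18 genes for the fate of mitochondrial RNA, 7 were higher and 7 lower in siCPSF6 on average and 4 did not pass, shares close to those of all genes (34.4% higher and 35.4% lower). FASTKD5, which acts in the maturation of mRNAs that no tRNA flanks, was higher by 0.90 (SE 0.07), its relative FASTKD1 by 0.69 (SE 0.05) and SUPV3L1, the helicase of the mitochondrial RNA degradation complex, by 0.54 (SE 0.07). TBRG4, also called FASTKD4, was higher by 0.36 (SE 0.04). PNPT1, the nuclease of that complex, had -0.22 (SE 0.04, adjusted p = 0.00045), and FASTK, whose mitochondrial form is known to be required for MT-ND6 mRNA, had -0.34 (SE 0.04, adjusted p = 3.5e-06). SLIRP, which with LRPPRC stabilises heavy-strand mRNAs, had -0.32 (SE 0.05), while LRPPRC itself had 0.08 (SE 0.05, adjusted p = 0.16) and passed with median-ratio scaling (0.11, adjusted p = 0.038). GRSF1, which binds G-rich mitochondrial RNA, had -0.31 (SE 0.05), but -0.02 with TPM (adjusted p = 0.82).

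Of 5 genes for mitochondrial transcription 4 were higher in siCPSF6 on average (34.4% of genes), and 3 with spike-in scaling (26% of genes). POLRMT, the mitochondrial RNA polymerase, was higher by 0.49 (SE 0.05, adjusted p = 9.1e-07) and TFB2M, a factor of transcription start, by 0.54 (SE 0.07, adjusted p = 8e-06). TFAM, which packages mitochondrial DNA and activates its promoters, had 0.08 (SE 0.04, adjusted p = 0.094) and passed with median-ratio scaling (0.12, adjusted p = 0.022) and with TPM (0.52, adjusted p = 8.3e-05). TFAM is named as the gene left over, after its values had been seen.

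Nuclear copies of mitochondrial DNA can share reads with the members. Of the 4 pseudogenes of members with a value, MTND2P28 passed the filter, with 1 to 96 normalized counts per library, and the others had at most 4. MT-ND2 had at least 1296 times the count of MTND2P28 in each library. From 0 to 6 h MTND2P28 changed by -3.18 in siCPSF6 and -4.39 in siNC (SE 0.55 each). Reads that could come from either are assigned by the authors' software.

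Genes with a course like that of MT-ND6 were sought among all named genes other than the members with a mean of at least 100. The 5 highest Pearson correlations over the 12 libraries, as a description without a test since the libraries are shared, were with BTG1 (r = 0.993), FAM117B (0.992), FOXP1 (0.991), CWC22 (0.991) and GATA4 (0.991). Of these GATA4, a transcription factor gene of liver and heart, changed most by 6 h, with -3.47 in siCPSF6 and -4.11 in siNC, and BTG1, an antiproliferative gene, had -3.28 in siCPSF6 and -3.82 in siNC. For the mean of the other 6 members the 5 were SNRNP48 (0.986), DR1 (0.984), TXNL1 (0.980), GPHN (0.979) and NOA1 (0.978), the last a GTPase of the mitochondrial matrix.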

How the data were processed

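RNA of 12 libraries was measured. The submitters' processing notes name STAR, RSEM and hg38; for their versions, the annotation and the strand setting of the counting the entry is: not given in the sources used here. Normalized counts, as deposited, are a score that the authors made by scaling counts to 1 upper quartile (660.5 or 661 per library) and rounding, so raw-count tests were not run. The deposited TPM table served as an alternative. Libraries held 19133288 to 33352246 normalized counts.

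The 6 groups entered limma 3.58.1 (R 4.3.3; trend, robust) on log2(normalized count + 1), in 1 model with 6 residual degrees of freedom, for the 12939 of 22148 genes whose mean was 20 or more, with Benjamini-Hochberg adjustment and a threshold of 0.05. This scale understates the change of low genes. The model was tested on simulated data. Spike-in scaling divided libraries by their sum over 87 spike-ins. Alternatives were a pseudocount of 0.1 or 10, a minimum mean of 100 or none, other scalings (median ratio, spike-ins), TPM (minimum mean 1), limma lacking both settings, the replicate block, a fit of the compared groups alone, and leaving out each library.

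Same-numbered libraries deviated together (r between 0.11 and 0.24 in all 15 group pairs), so the numbers may pair the libraries; this rests on the values, since no label names a shared batch. The model above has no block, and the block is an alternative. The labels call replicates biological, and replicates differed beyond counting noise (chi-square over degrees of freedom, 5.74 to 14.8). Members and gene lists were chosen with earlier results of these data known. Named are all members, up to 4 genes of smallest p per list, 6 factors by role, and the 5 genes most like MT-ND6 and most like the mean of the others. Sequences and coordinates come from GENCODE release 29 (hg38), whose versioned identifiers equal those of the files for all 13 mitochondrial mRNAs.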

Additional observations from a re-analysis of the deposited data

Results flagged for a closer look

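The change of MT-ND4L from 0 to 3 h differed between the arms by -0.51 on the log2 scale, as the test of the difference itself passed with all libraries as deposited (limma adjusted p = 0.037). MT-ND4L counts were 12919 and 13466 in siCPSF6 and 13675 and 14785 in siNC at 3 h, and 9113 and 9628 in siCPSF6 and 7567 and 6644 in siNC at 0 h. In normalized counts the arms thus stood further apart at 0 h, where siCPSF6 was higher, than at 3 h, where siNC was higher. In TPM the arms overlapped at 3 h, with 15115 and 16901 in siCPSF6 and 14467 and 15405 in siNC. In the TPM table the difference was -0.06 (adjusted p = 0.9), and with spike-in scaling -0.35 (adjusted p = 0.67). It was -0.51 in limma without trend or robust settings (adjusted p = 0.15). The call was also lost when any library of 0 h or 3 h was left out, as described above. MT-ND4L is 297 bases long.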

How the results depend on the processing

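Of 1232 log2 differences of members recomputed under the alternatives, 1149 kept their direction and side of the threshold. With the sign kept, 27 lost the call and 17 gained it. Another 39 changed sign, and some of these lost or gained the call as well. The number of members called at 0 h was 0 with spike-in scaling and 2 with TPM, and in the average over the times 2 with spike-in scaling. For the difference between the arms to 3 h it was 2 with median-ratio scaling, 0 with spike-in scaling, 0 with TPM, 0 with limma without trend or robust settings, 3 with the replicate block, 2 with only the groups compared, and 0 to 2 with a library left out. To 6 h it was 1 with TPM, 1 with the replicate block, and 0 to 1 with a library left out. The replicate block changed no other count of members by over 1.5 times.

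With spike-in scaling these turned to the other sign: MT-ND1 on average (-0.037), MT-ND4 (-0.28), MT-ND4L (-0.041) and MT-ND5 (-0.47) at 3 h in siCPSF6, MT-ND4 (-0.27) and MT-ND5 (-0.35) at 3 h in siNC, MT-ND4 at 6 h (-0.73 in siCPSF6, -0.87 in siNC), and the difference to 3 h of MT-ND2 (0.15). With TPM they were MT-ND4 (-0.23), MT-ND4L (-0.15) and MT-ND5 (-0.43) at 3 h in siCPSF6, MT-ND4 (-0.16), MT-ND4L (-0.090) and MT-ND5 (-0.23) at 3 h in siNC, MT-ND4 at 6 h (-0.62 in siCPSF6, -0.78 in siNC), the differences to 3 h of MT-ND2 (0.10) and MT-ND3 (0.058), and that to 6 h of MT-ND3 (0.058). With median-ratio scaling they were MT-ND5 at 3 h in siCPSF6 (-0.14) and MT-ND4 at 6 h (-0.16 in siCPSF6, -0.18 in siNC). Leaving out a library gave -0.041 to 0.061 for MT-ND1 and -0.21 to 0.080 for MT-ND6 on average, -0.040 to 0.027 for MT-ND2 in the difference to 3 h, and in that to 6 h -0.040 to 0.23 for MT-ND4L, -0.007 to 0.082 for MT-ND4 and -0.081 to 0.10 for MT-ND5. The cause was not tested. With 2 libraries a group, a library left out leaves a lone one that is assumed to vary like the other groups. MT-ND6 after the drug rests on few reads.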

Other observations

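The mitochondrial rRNAs took a growing share of the libraries while the share of the complex I mRNAs shrank. They made up 1.71% and 1.82% of gene counts at 0 h, 4.49% and 4.72% at 3 h and 5.18% and 5.41% at 6 h in siCPSF6. In siNC they made up 2.05% and 2.02% at 0 h, 4.34% and 4.40% at 3 h and 4.74% and 4.83% at 6 h. The libraries were made from mRNA, so these are shares of the rRNA that was carried through, and the shares were not tested. As genes in limma, both rRNAs were higher at 6 h than at 0 h in each arm (49.8% of genes in siCPSF6 and 48.6% in siNC). With spike-in scaling both were still higher (5.83% of genes in siCPSF6 and 10.2% in siNC). MT-RNR1 then stood at 566% of its 0 h mean in siCPSF6 and 490% in siNC. MT-RNR2 stood at 224% in siCPSF6 and 167% in siNC. The cause was not tested. Among 19 assembly factors of complex I, 5 were higher and 7 lower in siCPSF6 on average (34.4% of genes higher and 35.4% lower). NDUFAF4 was higher by 0.82, NUBPL by 0.70 and COA1 by 0.44, and FOXRED1 had -0.55.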
